A study of Mus musculus and Homo sapiens with 20 samples.

Results

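The regions described here are peaks of HSP90 chromatin immunoprecipitation (ChIP-seq) in K562 cells that lie on the assembled human chromosomes. They were the rows of the deposited peak list placed on a numbered chromosome or on X, without the rows on chromosome 21 that start below position 8500000, and they came to 773 of 801 peaks. The 28 rows left out were 15 on unplaced contigs and 13 on chromosome 21. The list rests on 1 immunoprecipitated and 1 input library, both from K562 cells labelled Control, so peak values have no replicate and no test is made between peaks. The antibody is labelled as one to HSP90B, from Abcam. K562 is a human line from chronic myeloid leukaemia that carries the BCR-ABL1 fusion gene. RNA-seq of the same line gave 3 Control libraries, whose columns are named for the solvent DMSO, and 3 libraries of cells kept for 16 h in 300 nM NVP-AUY922, an inhibitor of the ATP site of HSP90 (HSP90i). ChIP of inhibitor-treated cells was not analysed here, and nothing in the labels says that the replicates are separate cultures, so p-values may measure technical spread only.

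HSP90 is an abundant ATP-driven chaperone that folds and holds kinases, receptors and other client proteins, mostly in the cytoplasm. A part of it is also found in the nucleus and on chromatin, where it has been linked to RNA polymerase paused just downstream of gene starts. When its ATP site is blocked, the heat shock factor HSF1 becomes active and the chaperone genes are transcribed.

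The peaks covered every autosome and X, 23 chromosomes in all, and summed to 235651 bp. None overlapped or touched another. They were far from even along the genome. Chromosome 1 held 99 peaks, chromosome 19 held 79, chromosome 7 held 57, chromosome 6 held 56 and chromosome 2 held 54. The fewest lay on chromosome 14, with 7 peaks, and on X, with 9. Chromosome lengths were not at hand, so density was taken over the stretch between the first and the last summit, the summit being the base of highest signal in a peak. It reached 1.35 peaks per Mb on chromosome 19, against a median over chromosomes of 0.222 per Mb. Chromosomes 22 and 21 followed with 0.628 and 0.622 per Mb, and chromosome 14 and X came last with 0.0857 and 0.0616 per Mb. The values of chromosomes 22 and 21 rest on 22 and 14 peaks over short stretches of 33.5 and 20.9 Mb. On chromosome 1 the stretch was 248 Mb. The median step from summit to summit was 348 kb on chromosome 19 and 12153 kb on X. Chromosome 19 is known as the human chromosome richest in genes. Whether density followed genes was not tested.

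**Figure D1:**
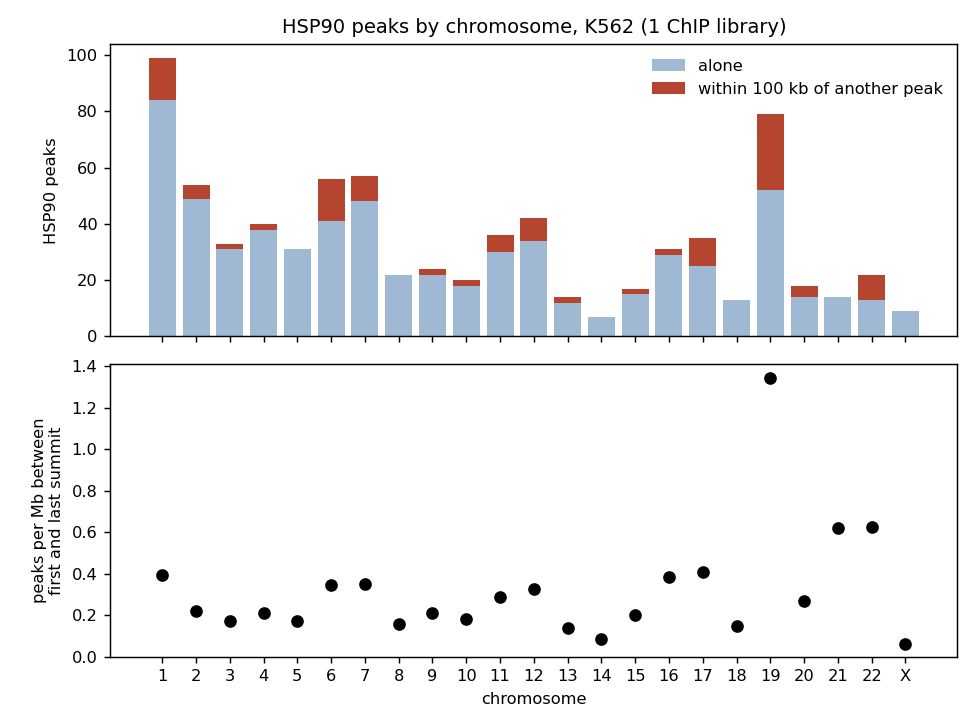
Upper panel: number of HSP90 peaks on each chromosome, split into peaks alone and peaks with another within 100 kb. Lower panel: peaks per Mb between the first and last summit of each chromosome. Chromosome 19 stands at 1.35 peaks per Mb, above all others, and X is lowest at 0.0616.

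The 750 gaps between neighbouring peaks ran from 0.259 kb, on chromosome 7, to 54742 kb, on chromosome 2, with a median of 1327 kb and quartiles of 390 and 4124 kb. In 66 cases (8.80%) the gap was at most 100 kb, and in 323 (43.1%) at most 1 Mb. Another 74 gaps were longer than 10 Mb. Very close peaks were rare, with 10 gaps of at most 10 kb and 2 of at most 1 kb. The closest neighbours were the chromosome 7 peak at chr7:107744049-107744261 and the peak before it. The next closest lay on chromosome 19, where 354 bp separated chr19:18374471-18374728 from the peak before it.

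**Figure D2:**
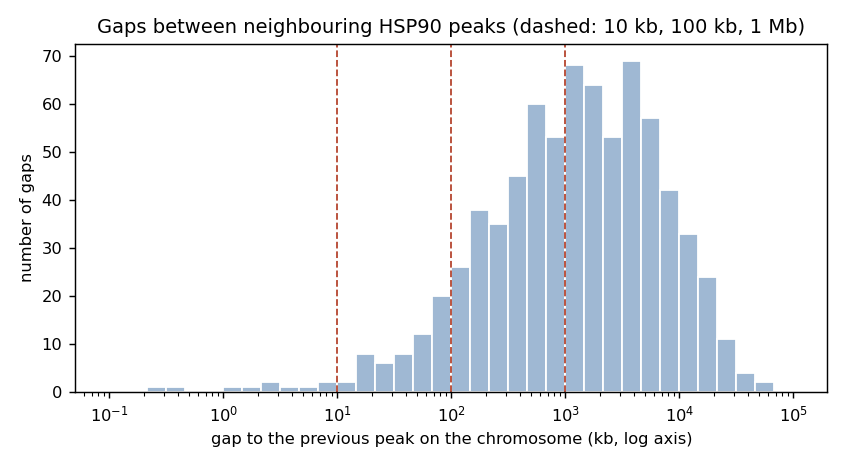
Number of gaps between neighbouring HSP90 peaks (750 gaps) by gap length in kb on a log axis. Dashed lines mark 10 kb, 100 kb and 1 Mb, below which 10, 66 and 323 gaps lie. The median is 1327 kb.

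Peaks joined wherever the gap was at most 100 kb formed 56 clusters, made up of 47 pairs, 8 triplets and 1 group of 4. These clusters held 122 peaks, 15.8% of all (exact 95% binomial interval 13.3 to 18.5, for counting error only). The other 651 peaks stood alone. Clustered peaks made up 40.9% of the peaks of chromosome 22, 34.2% of chromosome 19, 28.6% of chromosome 17 and 26.8% of chromosome 6. No peak was clustered on chromosomes 5, 8, 14, 18, 21 or X. Clustered and lone peaks were alike in fold, with a median of 6.74 in each, and near in width, with medians of 271 and 286 bp. In pairs the higher fold was a median of 1.24 times the lower, and in 38 of 47 pairs the folds lay within 1.5 times of each other. Summits of a pair stood 0.410 to 97.2 kb apart, with a median of 42.1 kb. The share in clusters depends on the distance chosen, since 10 kb gave 2.59% of peaks in 10 clusters and 1 Mb gave 58.9% in 132.

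Over 1 Mb bins, 449 of the bins with a peak held 1 and 77 held 2, while the densest was on chromosome 11 from 65 to 66 Mb with 7 peaks. Chromosome 17 from 7 to 8 Mb followed with 6. When peaks up to 1 Mb apart were joined, the longest run was 22 peaks on chromosome 6, at chr6:30066934-37433365. This stretch includes the major histocompatibility region of 6p21, a gene-dense region. Runs of 13 peaks lay at chr22:18529048-21666342 and chr19:47130786-50725096.

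The fold of a peak is the peak caller's enrichment of ChIP signal at the summit over its local background, as the authors deposited it. It ran from 2.94 to 38.1, with a median of 6.74 and quartiles of 5.81 and 8.09. In 709 peaks it was at least 5, in 83 at least 10 and in 7 at least 15. Peak widths ran from 213 to 737 bp with a median of 285 bp. The narrowest value, 213 bp, was shared by 82 peaks (10.6%), and 27 peaks were wider than 500 bp. Higher peaks were wider, with a median width of 351 bp in the 193 peaks with the highest folds and 248 bp in the 194 with the lowest. None of the 82 narrowest peaks was among those 193. Across the 773 peaks the Spearman correlation of fold and width was 0.439, given as a description, since both come from the same reads.

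Summits sat near the middle of their peaks. The median position was 50.2% of the way along the peak, and 723 peaks (93.5%) had it between 25% and 75%. Of the other peaks, 24 had the summit nearer the start and 26 nearer the end. The widest peak, chr11:58578042-58578778 with 737 bp, had its summit 571 bp in. Next by width were chr22:21468099-21468795 (697 bp, fold 4.25) and chr1:235328298-235328937 (640 bp, fold 8.25).

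**Figure D3:**
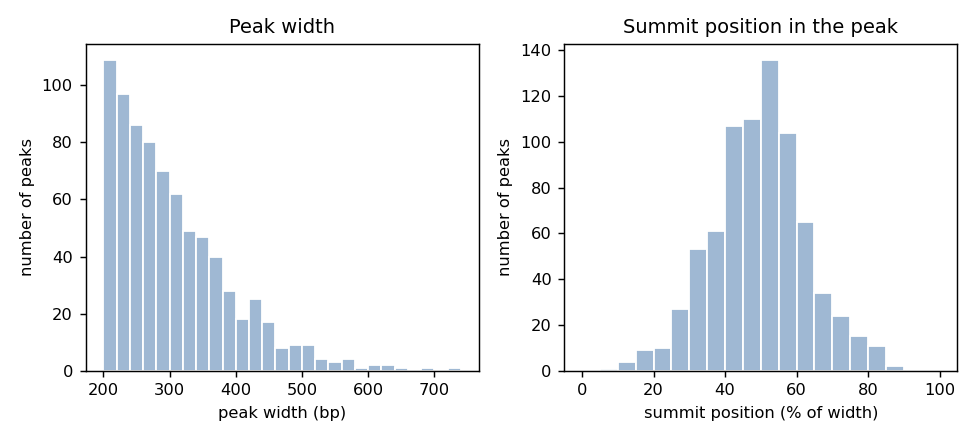
Left: number of HSP90 peaks by width in bp, with 82 of 773 at the narrowest value of 213 bp. Right: number of peaks by the position of the summit as a percentage of the width, with a median of 50.2%.

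Fold and p together give back what each peak rests on. For all 801 rows, 1 whole number of reads at the summit (the pileup) and 1 expected number (the background) satisfied both values, if fold is (pileup + 1) / (background + 1) and p the Poisson tail. The deposited −log10 p was missed by at most 0.000108 over these rows. Over the 773 peaks, the next whole number missed by at least 0.0476. By this reading peaks were shallow. The pileup ran from 8 to 151 reads with a median of 17, and was under 20 in 501 peaks (64.8%). The implied background had a median of 1.72 reads and ran from 0.365 to 16.8. A median pileup of 17 reads thus leaves a wide counting error, and neighbouring folds cannot be ranked. The backgrounds were not continuous. In 571 peaks (73.9%) they were multiples of 0.0612 reads within 0.0005, a window that covers 1.63% of the number line, and in 185 more they were multiples of 0.0130, that step times 213 over 1000. The step was found by searching the same values. If it is the factor by which the input was scaled, the input held 16.3 times the reads of the ChIP library. Across peaks, Spearman correlations with fold were 0.630 for pileup and -0.287 for background (n = 773). Fold is computed from both, so these describe the list only.

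The highest fold was at chr2:233725048-233725454, at 38.1. It was 1.93 times the fold of the peak ranked next. It had a pileup of 72 reads (exact 95% Poisson interval 56.3 to 90.7, for counting error only) over a background of 0.918. This position lies within the UGT1A locus, whose genes encode enzymes that attach glucuronic acid to bilirubin, hormones and drugs, from separate first exons joined to shared later ones. In K562 RNA all 9 UGT1A symbols in the count table had 0 counts in each of the 6 libraries, which allows up to 0.274 to 0.378 CPM (counts scaled to library size) a library, taking 3 counts as the limit. Reads in exons shared by several genes may not have been assigned to any of them, and no source used here gives the counting rule.

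Here and below, gene names beside peaks come from general knowledge of GRCh38. No human annotation was used, so no distance to a gene start and no exon or intron was computed. The placement was made for 56 peaks (7.24% of 773) and 63 well-known genes, after the peaks and the raw counts of candidate genes had been seen. It is not the set of genes at HSP90 peaks, and its counts describe these genes alone. Where neighbouring peaks were given neighbouring genes, the order was compared with that of the mouse genes in RefSeq's GRCm38.p6. It was the same or reversed, on 1 mouse chromosome, in 6 of the 6 sets that could be compared. For the NEAT1 and MALAT1 set, of 2 genes, the order could not differ, so the order was checked in 5 sets. The sets of POLR2J copies and of histone H4 genes could not be compared. This comparison concerns the order of genes only, and cannot show that a peak lies at the gene named beside it.

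The peak with the second highest fold, 19.7, was at chr2:216109082-216109408, by XRCC5, which encodes the Ku80 subunit of the DNA end-joining machinery. Its pileup was 50 reads (37.1 to 65.9) over a background of 1.59. The third was chr4:119454539-119454900, with a fold of 17.8, and was given no gene. EXOSC9, a subunit of the RNA exosome, lay at chr4:121801171-121801533 (fold 17.03). MRPL54, a mitochondrial ribosomal protein gene, lay at chr19:3762782-3763161 (16.6), and ACAD9, needed to assemble respiratory complex I, at chr3:128879335-128879700 (15.8). SAFB and SAFB2, which encode nuclear scaffold attachment factors from adjoining starts, lay at chr19:5622835-5623163 (14.002). The remaining members of the 10 with the highest fold were given no gene. They were chr12:66057598-66057816 (15.5), chr19:4328340-4328721 (13.9) and chr7:43577489-43577785 (13.6). Pileups of these 10 ran from 26 to 72 reads and their backgrounds from 0.918 to 2.999. Of the 10, 3 were also among the 10 with the largest pileup, 6 among the 10 with the smallest p, and 3 were in clusters.

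Among the other placed peaks were several genes of transcription and RNA processing, which are named as examples. NELFE encodes a subunit of the negative elongation factor that holds paused polymerase, and its peak, chr6:31958989-31959203, between it and the neighbouring SKIV2L, had a low fold of 4.32 and 16 reads (9.15 to 26.0). CCNT1, the cyclin of the kinase P-TEFb that releases paused polymerase, had chr12:48716740-48716969 with a fold of 5.61. POLR2A, the largest subunit of RNA polymerase II, had chr17:7484596-7484886 with 8.83. HSPA8, the constitutive HSP70 chaperone, had chr11:123062268-123062615 with 7.31, a pileup of 19 reads and rank 287 by fold. Splicing genes were SNRNP70 at chr19:49085074-49085538 (13.1), SRSF1 at chr17:58007188-58007533 (9.85), SF1 at chr11:64778703-64779217 (9.05), U2AF2 at chr19:55653801-55654221 (8.79), SF3B1 at chr2:197434976-197435199 (7.21), LSM2 at chr6:31806834-31807059 (6.13) and SF3A2 at chr19:2236244-2236673 (5.69). The nuclear pore gene TPR had chr1:186375302-186375933, with a fold of 13.3 and 632 bp. On X, the RNA helicase gene DDX3X and the histone demethylase gene KDM5C had folds of 6.25 and 5.92.

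The group of 4 peaks lay at 11q13, over 81.2 kb from summit to summit. Its peaks were chr11:65040882-65041108 by SAC3D1 (fold 5.81), chr11:65084085-65084430 by CDCA5 and ZFPL1 (5.90), chr11:65096023-65096318 by VPS51 (5.94) and chr11:65122121-65122348 by FAU (6.95). CDCA5 encodes sororin, which guards sister chromatid cohesion, VPS51 a subunit of a tethering complex of endosomes and Golgi, and FAU a ubiquitin-like protein fused to ribosomal protein S30. Of these folds, the FAU peak's was near the median of the list, 6.74, and the other 3 were near its lower quartile, 5.81. In the same 1 Mb bin were 2 peaks 75.2 kb apart by nuclear long noncoding RNAs, NEAT1 (chr11:65422217-65422462, fold 9.31) and MALAT1 (chr11:65497249-65497695, 12.1). NEAT1 is the scaffold of paraspeckles, and MALAT1 is found in nuclear speckles.

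A pair of triplets stood next to each other at 17p13. The first had peaks by PHF23 at chr17:7239619-7239831 (fold 6.23), EIF5A at chr17:7307005-7307580 (11.1) and NEURL4 at chr17:7329447-7329752 (8.99). The second held the POLR2A peak, MPDU1 at chr17:7583603-7583856 (7.19) and FXR2 at chr17:7614947-7615387 (6.29). A triplet on 6p22 had peaks by TDP2 and ACOT13 at chr6:24666821-24667148 (7.001), C6orf62 at chr6:24721069-24721465 (9.09) and GMNN, the replication licensing inhibitor geminin, at chr6:24774725-24775063 (9.32). These summits were 54.2 and 53.7 kb apart. Near the histone cluster of 6p22, 3 peaks lay by HIST1H4B at chr6:26027183-26027401 (6.17), HIST1H4E at chr6:26204439-26204657 (6.56) and HIST1H4H at chr6:26285439-26285686 (8.09). Another triplet, on 7q22, lay by copies of POLR2J, a polymerase II subunit gene. It held chr7:102478838-102479186 (10.1), chr7:102572454-102572846 (10.3) and chr7:102671586-102671807 (6.93). The copies are near-identical, so reads could be placed at either, and the counts of these peaks are uncertain.

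A stretch of chromosome 22 stood apart in background. Of the 18 peaks with an implied background above 4 reads, 13 lay on chromosome 22 between 18 and 22 Mb, and these were all the peaks of that window. Their backgrounds ran from 4.08 to 11.9 reads (median 7.01), against a median of 1.10 over the other 9 peaks of the chromosome. Pileups were also larger, 27 to 71 reads with a median of 37, against a median of 15. Folds were nonetheless low, at a median of 5.29 against 7.86. The 3 lowest folds of all 773 peaks were in this window, at chr22:21666000-21666342 by PPIL2 (2.94), chr22:21629892-21630161 (3.02) and chr22:19144551-19144776 by DGCR14 (3.44). It also held the triplet by SNAP29 at chr22:20858750-20858978 (5.29), CRKL at chr22:20917209-20917579 (4.98) and THAP7 at chr22:21001692-21002177 (6.97). CRKL encodes an adaptor protein phosphorylated by BCR-ABL1. The THAP7 peak had 71 reads over a background of 9.34, so the order by reads differed from the order by fold.

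The largest pileup of the list was on chromosome 9, at chr9:131125363-131125819 by NUP214, with 151 reads (128 to 177). NUP214 encodes a nuclear pore protein and lies close to ABL1. Its background was also the highest, 16.8 reads, which left a fold of 8.55. Another chromosome 9 peak, chr9:128275933-128276334 by GOLGA2, a Golgi matrix protein gene, had 71 reads over 5.08, for a fold of 11.8. Over the 4 Mb that end at the NUP214 summit, 4 peaks had backgrounds of 2.20 to 16.8 reads, with a median of 4.20. The other 20 peaks of the chromosome had 0.735 to 2.63 reads, with a median of 1.598, so the ranges overlapped. Of the 4 peaks, only those by NUP214 and GOLGA2 stood above 4 reads. K562 is known to carry extra copies of the joined 22q11 and 9q34 segments around BCR-ABL1. The NUP214 peak lay 2849028 bp from the peak before it, the one by GOLGA2. The ends of the joined segments were not used here, so which of these peaks lie within them was not determined. The part of copy number in these backgrounds was not tested. Both windows and the limit of 4 reads were chosen after the values were seen. Of the remaining 3 peaks above it, the chromosome 7 peak by POLR2J3 had 5.63, chr22:11706966-11707212 had 5.75 and chr1:16613443-16613679 had 8.88. Without the 18, 755 peaks were left, in 52 clusters that held 14.8% of them.

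**Figure D4:**
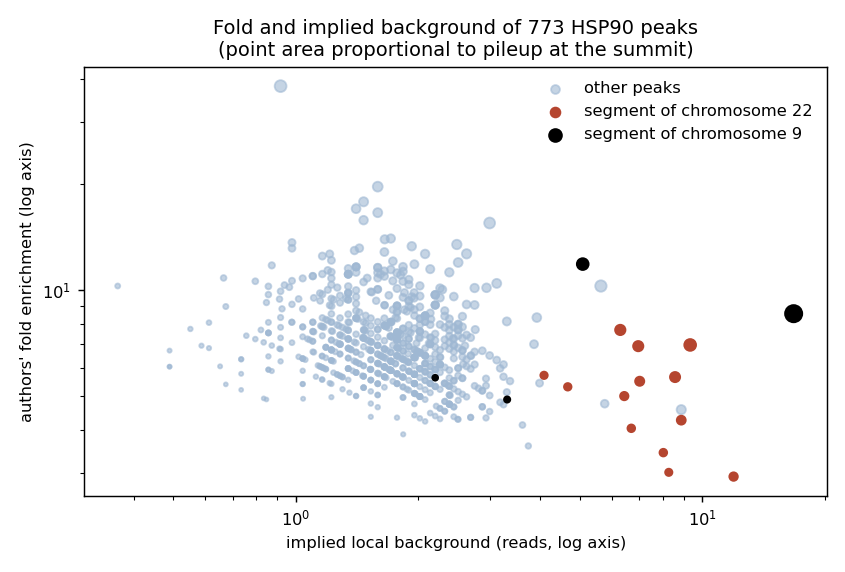
Fold as deposited against the implied local background in reads, both on log axes, for 773 HSP90 peaks, with point area in proportion to the pileup. The red points are the 13 peaks of chromosome 22 between 18 and 22 Mb (background 4.08 to 11.9) and the black points the 4 of chromosome 9 in the 4 Mb that end at the NUP214 summit. The highest fold, 38.1, stands over a background of 0.918.

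The RNA data show how the placed genes responded when HSP90 was inhibited. The 6 K562 libraries held 7936066 to 10950573 counts. All 10 K562 marker genes passed the filter on low counts, with a summed level of 2000 to 2138 CPM in Control and 1771 to 1961 in HSP90i libraries. T cell markers summed to 5.02 to 9.35 CPM in Control and 6.45 to 7.48 in HSP90i libraries, and B cell markers, with MS4A1 at 0, to 2.99 to 6.99 and 3.30 to 4.55. Fibroblast markers, of which COL1A1 passed the filter with COL1A2 at 0, were higher in every HSP90i library (10.5 to 11.5 CPM) than in any Control library (6.22 to 7.18). Monocyte markers, of which LYZ passed the filter, summed to 142 to 150 CPM in Control and 134 to 161 in HSP90i libraries. Epithelial markers, of which EPCAM and KRT19 passed with CDH1 at 0, summed to 92.5 to 165 CPM in Control and 135 to 161 in HSP90i. Their part in the results was not tested.

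Of the 63 placed genes, 58 could be tested, and most did not pass the test. With edgeR's quasi-likelihood test and Benjamini-Hochberg adjustment at 0.05 over all 13456 genes, 4 placed genes rose with HSP90i (6.90%) and 1 fell (1.72%). Over all tested genes 5.11% rose and 5.97% fell, so the share that rose was near that background, and with 1 gene the share that fell is not a result about the placed genes. The median log2 fold change of the 58 was -0.01, and -0.02 over all tested genes. Their median Control level was 167 CPM, against 27.3 over all tested genes, and 53 of the 58 were above the median level. The shares called therefore come from sets unlike in level. The placed genes were chosen as well known, after raw counts of candidates had been seen. Their level is thus not a result about HSP90 peaks. The UGT1A genes, HIST1H4B and POLR2J2 were too low to test. The counts moved with single libraries. Without Control replicate 1, 12 placed genes rose and 5 fell, while over all tested genes 1922 rose and 1995 fell. In the main fit 688 and 803 of all tested genes did so. Without Control replicate 2, or without any 1 of the HSP90i libraries, 1 placed gene rose, and it was HSPA8. Over all tested genes, 173 to 241 rose in these fits.

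HSPA8, the constitutive HSP70 gene, rose most. Its TMM-scaled CPM were 288, 257 and 305 in the Control libraries, and 4063, 4553 and 4203 in the HSP90i libraries. The groups were far apart, with means of 284 ± 24.5 and 4273 ± 252 (SD, n = 3). The log2 fold change was 3.91 (SE 0.13, edgeR adjusted p = 3.39e-06), and the call held in all 10 alternatives (adjusted p from 3.27e-186 to 0.00015). HSPA8 is 1 of 20 genes of a list of heat shock chaperones, of which 19 were tested, 16 rose and 1 fell, with a median log2 fold change of 2.66. Of that list, HSPA8 alone was among the genes placed by hand. With no annotation used, whether the others have a peak was not determined.

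GOLGA2, beside the chromosome 9 peak of fold 11.8, had 196, 229 and 259 CPM in Control and 384, 384 and 387 in HSP90i libraries. Its groups did not overlap. The log2 fold change was 0.76 (SE 0.13, edgeR adjusted p = 0.0106), and the call was lost without Control replicate 2 or any 1 HSP90i library, with adjusted p up to 0.0674. EIF4B, a translation initiation factor gene with a peak at chr12:53006144-53006610 (fold 7.22), had 151, 181 and 194 CPM in Control and 266, 268 and 289 in HSP90i libraries. All HSP90i libraries lay above all Control libraries. The log2 fold change was 0.64 (SE 0.13, edgeR adjusted p = 0.0193), lost without the same 4 libraries in turn, with adjusted p up to 0.104. ACAD9, at the peak of rank 6 by fold, had low levels of 9.05, 9.23 and 7.77 CPM in Control and 13.9, 13.2 and 14.9 in HSP90i libraries. It too showed no overlap. Its log2 fold change was 0.68 (SE 0.16, edgeR adjusted p = 0.0286), and the call was lost without Control replicate 2 or 3 or any 1 HSP90i library, with adjusted p up to 0.136.

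HIST1H4H, a replication-dependent histone H4 gene, was the placed gene that fell. It had 55.4, 46.9 and 44.5 CPM in Control and 26.5, 28.4 and 23.7 in HSP90i libraries. Each HSP90i library lay below each Control library. The log2 fold change was -0.90 (SE 0.14, edgeR adjusted p = 0.00725), and the call was lost without HSP90i replicate 1 or 3, with adjusted p up to 0.0565. Histone H4 genes are near-identical in their coding parts, so counts could be shared between copies. HIST1H4E, also by a peak, did not pass the test, with a log2 fold change of 0.10 (SE 0.27, edgeR adjusted p = 0.857).

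**Figure D5:**
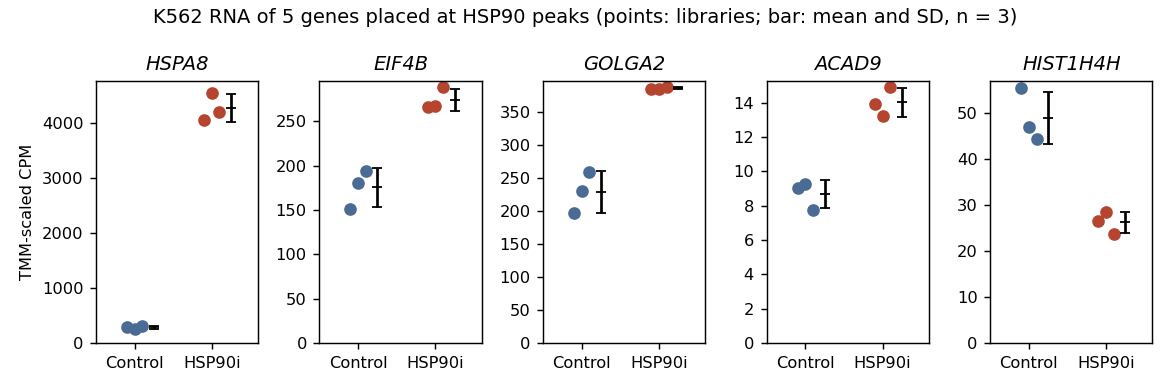
TMM-scaled CPM of the 5 placed genes that passed the test, in 3 Control (blue) and 3 HSP90i (red) K562 libraries. Points are libraries and bars the mean and SD (n = 3), each panel with its own axis from 0. Groups do not overlap in any of the 5, and HSPA8 rises from 284 to 4273 CPM.

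NELFE and CCNT1, of the polymerase pausing genes, did not pass the test. NELFE had 115, 77.9 and 69.6 CPM in Control and 79.6, 84.6 and 71.9 in HSP90i libraries, so the groups overlapped. Its log2 fold change was -0.15 (SE 0.19, edgeR adjusted p = 0.672). CCNT1 had 103, 154 and 170 CPM in Control and 162, 184 and 180 in HSP90i libraries, with a log2 fold change of 0.30 (SE 0.19, edgeR adjusted p = 0.346). Of the list of 13 pausing genes, all 13 were tested and 0 were called in either direction by edgeR, with 1 at an unadjusted p under 0.05, and 0 were called by DESeq2. With 5.11% of all tested genes called higher and 5.97% lower, 0 of 13 is near the background and is not a result about this list. POLR2A had a log2 fold change of 0.09 (SE 0.17, edgeR adjusted p = 0.794).

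Of the genes by peaks of high background, NUP214 had 622, 613 and 866 CPM in Control and 711, 621 and 823 in HSP90i libraries. Its groups overlapped, with a log2 fold change of 0.04 (SE 0.17, edgeR adjusted p = 0.918). THAP7, which encodes a zinc finger protein of the THAP family, had 135, 90.2 and 80.1 CPM in Control and 63.1, 65.4 and 61.5 in HSP90i libraries. The groups did not overlap, yet it missed the threshold (log2 fold change -0.69, SE 0.20, edgeR adjusted p = 0.0601). It was called with DESeq2, without the filter on low counts, with the replicate number as a block, and without Control replicate 1 or 3, with adjusted p over the alternatives from 0.00332 to 0.207. SAC3D1, of the group of 4 peaks on chromosome 11, had 43.9, 24.6 and 19.8 CPM in Control and 18.2, 18.2 and 12.5 in HSP90i libraries (log2 fold change -0.85, SE 0.30, edgeR adjusted p = 0.105). Over the alternatives its adjusted p ran from 0.00556 to 0.318. The other genes of that group, CDCA5, ZFPL1, VPS51 and FAU, had log2 fold changes of -0.03, 0.25, 0.35 and -0.07, and none passed the test. XRCC5 and EXOSC9, by peaks of rank 2 and 4, had log2 fold changes of -0.05 and -0.34, MRPL54 one of -0.01, and none passed it either.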

How the data were processed

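HSP90 peaks in K562 came as 1 list of narrow peaks. As deposited by the authors it held a score, a fold (ratio), −log10 p, −log10 q and the summit offset. Its contig names belong to GRCh38, and peak positions are counted from 1. Bowtie2, MACS2 and featureCounts are among the tools in the submitters' processing notes, with no role given. K562 gene counts were raw as deposited by the authors, and their build and use of strand are not given in the sources used here. Peak values were described with Python 3.11.15 and scipy 1.17.1. The recovery of pileup and background was tested on simulated peaks. RNA was compared with edgeR 4.0.16 in R 4.3.3 (filterByExpr, TMM, quasi-likelihood test, Benjamini-Hochberg adjustment, threshold 0.05), also tested on simulated counts. Where a symbol had several identifiers, the one with the most counts was used. Alternatives were stricter peak thresholds, other gap distances, RLE factors, no filter on low counts, a replicate block, DESeq2 1.42.0 and each library left out. The rule for named peaks took the 10 highest folds, the 3 widest and the clusters with the most peaks. With no human annotation it named peaks by position only, so all genes and further peaks named were chosen after values were seen. Peaks and gene lists were chosen with earlier results of these data known.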

Additional observations from a re-analysis of the deposited data

Results flagged for a closer look

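The 28 rows left out were also peaks of the deposited list, 15 on unplaced contigs and 13 on chromosome 21 below position 8500000. Their median fold was 2.31, against 6.74 over the 773 peaks, while the median implied background was 25.6 reads, against 1.72, and the median pileup 60 reads, against 17.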

How the results depend on the processing

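The number of peaks stayed within 1.5 times of 773 in all alternatives: 709 at a fold of at least 5, 590 at a −log10 p of at least 10, 801 with all rows kept, 773 with touching rows merged, and 755 without backgrounds over 4, an alternative chosen after the data were seen. At 100 kb there were 56 clusters with 15.8% of peaks, and 45 with 13.96% at a fold of at least 5. A gap of 10 kb gave 10 clusters and 2.59%, and 1 Mb gave 132 and 58.9%, by the construction of the rule. Peaks at gene starts or within genes, and genes within set distances of a peak, were planned and not run, since no human annotation was used; the genes placed by hand took their place and were not split by fold.

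In K562 RNA, 688 genes rose and 803 fell. The other tools and settings gave 715 to 969 higher and 789 to 1065 lower. Leaving out 1 library gave 173 to 1922 higher and 171 to 1995 lower, with the most calls without Control replicate 1. Placed genes that rose numbered 1 to 12 and those that fell 0 to 5 over the libraries left out. Those that fell were 3 without the filter on low counts, 3 with DESeq2 and 3 with the replicate block, against 1. Without Control replicate 1, FAU changed from -0.07 to 0.27 and MRPL54 from -0.01 to 0.36 in log2 fold change, and both were then called. Over the libraries left out, FAU ran from -0.23 to 0.27 and MRPL54 from -0.20 to 0.36. The cause was not tested. With the replicate block 872 genes rose and 938 fell, and 4 placed genes rose. Same-numbered libraries had correlations of 0.301, 0.043 and 0.474 between their deviations from the group means. Control libraries of replicates 1 and 3 correlated best with the HSP90i library of their own number, and that of replicate 2 did not. Whether same-numbered libraries share a batch was not tested, and the main fit did not pair them. Pileups of a median of 17 reads from 1 ChIP library limit any ranking of peaks.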
